A study of Mus musculus with 8 samples.

Results

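The NF-kB pathway and its negative feedback were followed through 31 genes, chosen as a named list of NF-kB subunits, IkB proteins, upstream kinases and adaptors, feedback inhibitors and induced targets. All 31 were among the 23369 genes of the deposited count table, and 31 passed the filter on low counts. The cells were neutrophils of inflamed spinal cord, gated as CD45+CD11b+Ly6G+. The donors were C57BL/6N mice in which experimental autoimmune encephalomyelitis (EAE) had been induced, an autoimmune inflammation of brain and spinal cord that serves as a model of multiple sclerosis. Cords were taken at ZT13, 13 h after lights-on and thus early in the dark phase (n = 4), or at ZT1, 1 h after lights-on (n = 4). All mice carried EAE, so healthy animals formed no group. The age and sex of the mice, and the disease stage at sampling, were not analysed here. No label ties a library to an animal, so p-values speak of the spread between libraries, part of which may be technical. The comparison asks how NF-kB genes of tissue neutrophils differ between the times of day.

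NF-kB is a family of transcription factors that resting cells hold in the cytoplasm, bound to inhibitory IkB proteins. Signals from tumour necrosis factor, interleukin-1 and Toll-like receptors pass through TRAF adaptors to the IkB kinase complex. The kinase marks IkB proteins for destruction, and the freed dimers enter the nucleus and induce inflammatory genes. Among those genes are the brakes of the pathway, such as IkB alpha and A20, so that a burst of activity raises the transcripts that end it. In neutrophils the pathway is known for driving cytokine production and for prolonging survival.

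The libraries held 46152067 to 67873023 counts. CPM values below are counts relative to the library total, with totals scaled by TMM factors. A count of 0 allows a level of up to 3 counts, equal to 0.0414 to 0.0673 CPM at these depths, counting error alone considered. The sort marker gene Ly6g lay between 453 and 511 CPM at ZT13 and between 264 and 498 CPM at ZT1. Genes with 1 or more counts numbered 14908 ± 766 at ZT13 and 16891 ± 815 at ZT1 (SD, n = 4 each), and a two-sided exact permutation test gave p = 0.0286, the smallest value possible with 4 libraries per group. ZT13 replicate 3 stood apart from the other libraries on the first principal component and had the fewest detected genes, 13945. No pair of libraries within a time point agreed within sampling noise, and each was counted as a separate sample.

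Several of these genes hold letters of the NF-kB consensus site close to a RefSeq transcription start. RefSeq windows (build GRCm38.p6) from 250 bases before to 50 bases after a transcription start were at hand for 23 of the 31 genes. They were searched on both strands for the 10-base NF-kB consensus site, known as the kB site, counting overlapping matches as 1 window. A match stood in at least 1 window of 11 of the 23 genes, and in 13 of their 31 windows (41.9%), against 8.46% of all 32851 windows. By role, it was found for 2 of 3 subunit genes, 4 of 5 IkB genes, 0 of 5 kinase and adaptor genes, 3 of 5 feedback genes and 2 of 5 induced targets. A match is a run of letters and not evidence of binding, and its absence says nothing of sites outside the window. The 250 bases before the start are shown for 4 genes on which the results below turn. Nfkbia and Nfkbie encode IkB inhibitors, and Tnip3 and Tnip2 encode partners of A20. Letters in capitals are the consensus match. It begins at position -29 from the start in Nfkbia (minus strand, chr12:55492648-55492897) and at -106 in Nfkbie (plus strand, chr17:45555450-45555699). In Tnip3 (plus strand, chr6:65590148-65590397) it begins at -54, and the Tnip2 window (minus strand, chr5:34513980-34514229) holds none. The Tnip3 start used here is a RefSeq start inside the annotated gene, which spans 65525313 to 65634040, and not at its outer end.
Nfkbia: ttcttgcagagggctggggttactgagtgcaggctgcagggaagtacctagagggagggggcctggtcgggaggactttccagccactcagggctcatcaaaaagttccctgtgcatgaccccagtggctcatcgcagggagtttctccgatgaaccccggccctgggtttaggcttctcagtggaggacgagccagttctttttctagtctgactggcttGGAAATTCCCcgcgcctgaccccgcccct
Nfkbie: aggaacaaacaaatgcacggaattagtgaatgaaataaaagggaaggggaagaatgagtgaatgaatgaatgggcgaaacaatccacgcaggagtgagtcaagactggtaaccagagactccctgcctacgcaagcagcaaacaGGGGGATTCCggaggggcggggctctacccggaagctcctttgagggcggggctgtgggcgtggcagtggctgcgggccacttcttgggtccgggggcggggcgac
Tnip3: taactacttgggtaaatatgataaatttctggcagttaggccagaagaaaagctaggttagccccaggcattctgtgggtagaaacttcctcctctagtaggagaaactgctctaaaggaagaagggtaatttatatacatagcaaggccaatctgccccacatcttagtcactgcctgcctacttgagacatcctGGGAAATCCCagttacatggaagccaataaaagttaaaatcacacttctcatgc
Tnip2: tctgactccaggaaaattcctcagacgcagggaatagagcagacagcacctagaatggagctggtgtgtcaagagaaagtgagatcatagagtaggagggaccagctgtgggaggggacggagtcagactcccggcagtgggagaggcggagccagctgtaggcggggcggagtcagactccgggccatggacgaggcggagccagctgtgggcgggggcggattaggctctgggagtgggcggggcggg

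Most NF-kB genes had lower values at ZT13 than at ZT1, by small amounts. Of the 31, 28 had negative log2 fold changes (ZT13 over ZT1), against 52.3% of the 12610 genes tested. With a library left out the count ran from 24 to 29. With a block for the number in the library names it was 21, against 56.0% of all genes. The 31 genes were chosen with earlier results of these data known, so shares set beside all genes are descriptions. The median over the 31 was -0.21, and over all genes tested -0.02. None of the 31 passed at an adjusted p under 0.05 in the quasi-likelihood test of edgeR, as for all genes tested (0 of 12610, 0%). At an unadjusted p under 0.05 stood 6 of the 31, all lower at ZT13: Relb, Nfkbie, Ikbkb, Ikbke, Tnip2 and Tnip3. The same held for 4.85% of all genes tested in that direction and for 9.20% in either direction. Without ZT1 replicate 1, 12 of the 31 stood at an unadjusted p under 0.05, against 6.00% of all genes in that fit, and without ZT1 replicate 2 it was 4 of the 31, against 6.32%. DESeq2 called 3 of the 31, Ikbkb, Tnip2 and Tnip3, against 0.940% of the genes to which it gave an adjusted p. In these 3 genes, all 4 ZT13 libraries lay below all 4 ZT1 libraries, a pattern seen in 2.99% of all genes tested. Tnip3 is no support in these counts, since it passed the filter on low counts through its ZT1 libraries alone. Apart from it the counts were 5 at an unadjusted p under 0.05, 2 called by DESeq2 and 2 without overlap. The opposite order, all ZT13 libraries above all ZT1 libraries, was found in 0 of the 31 and in 2.66% of all genes tested. Because these are bulk samples, fewer cells of a kind and less RNA per cell cannot be told apart.

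**Figure D1:**
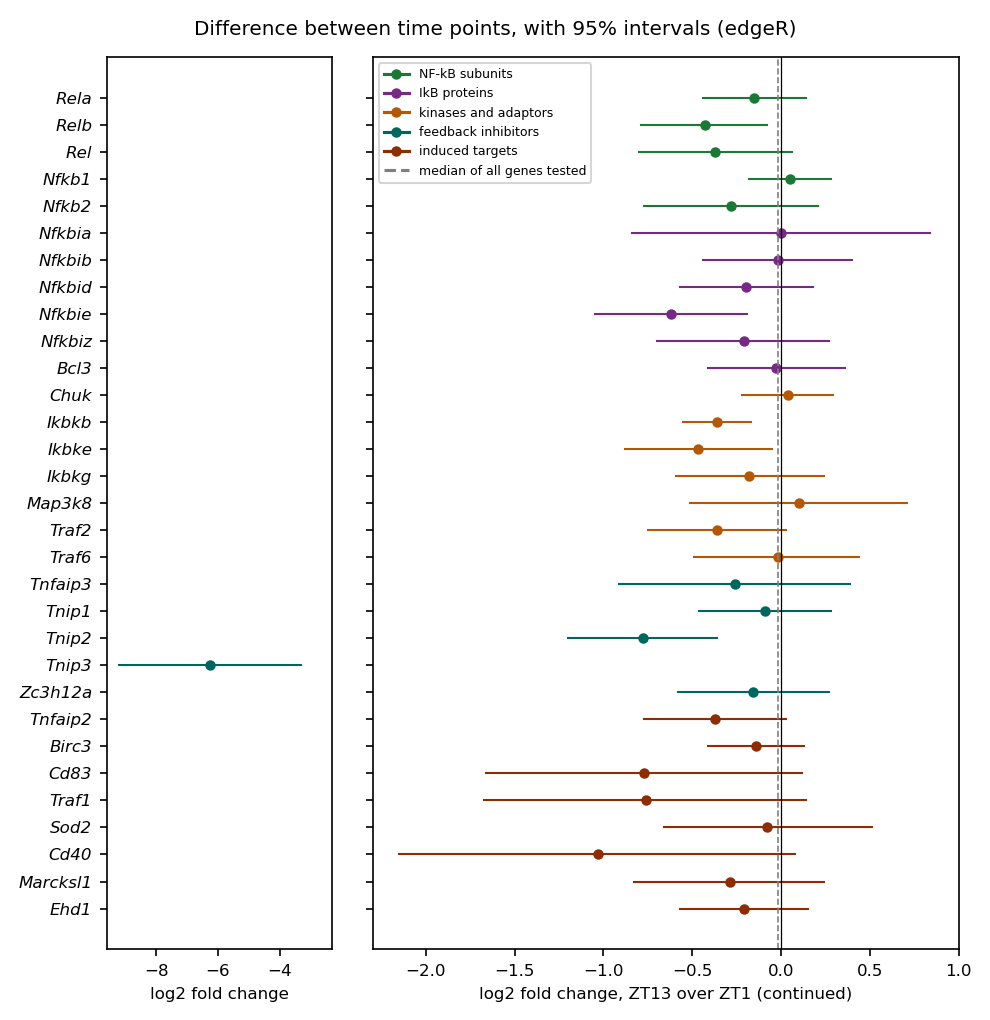
Log2 fold change of each of the 31 genes, ZT13 over ZT1 (x axis), with 95% intervals from edgeR, coloured by role; the left panel continues the axis for Tnip3, and the dashed line marks the median of all genes tested, -0.02. A total of 28 points lie left of 0, and the intervals of Relb, Nfkbie, Ikbkb, Ikbke, Tnip2 and Tnip3 do not reach it.

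Among the 5 NF-kB subunits, the noncanonical partner Relb set the times furthest apart. Rela, which encodes p65, the main activating subunit, was the most abundant per transcript length, at 63.2 CPM per kb averaged over the 8 libraries. Rela stood at 144, 152, 196 and 160 CPM in ZT13 replicates 1 to 4, against 148, 194, 201 and 180 CPM in ZT1 replicates 1 to 4 (log2 fold change -0.15 ± 0.13 SE, edgeR adjusted p = 0.798). Its ranges overlapped almost fully. Relb, which pairs with p52, stood at 30.4, 29.9, 27.7 and 28.1 CPM at ZT13, against 28.5, 46.5, 41.5 and 40.4 CPM at ZT1. The ZT13 libraries were close together, ZT1 replicates 2 to 4 lay above all of them, and ZT1 replicate 1 lay among them (-0.43 ± 0.16 SE, edgeR adjusted p = 0.494). Rel, the c-Rel subunit of myeloid and lymphoid cells, stood at 40.8, 48.3, 40.9 and 30.0 CPM at ZT13, against 41.1, 50.4, 68.7 and 46.6 CPM at ZT1 (-0.37 ± 0.19 SE, edgeR adjusted p = 0.606). ZT1 replicate 3 was its highest library and ZT13 replicate 4 its lowest, the groups overlapped, and without ZT1 replicate 3 the value was -0.20. Nfkb2, the precursor of p52, stood at 61.1, 53.2, 98.2 and 82.4 CPM at ZT13, against 63.6, 105, 86.6 and 103 CPM at ZT1 (-0.28 ± 0.22 SE, edgeR adjusted p = 0.769). Its groups overlapped through ZT13 replicates 3 and 4 and ZT1 replicate 1, and the value was -0.45 without ZT13 replicate 3 and -0.16 without ZT13 replicate 2. Of its exon bases, 12.6% and 7.08% overlap 2 genes on the opposite strand, whose reads cannot be told from its own in these unstranded libraries. Nfkb1, the precursor of p50, was the steadiest, at 62.8 ± 0.518 CPM at ZT13 and 60.7 ± 5.75 CPM at ZT1. Its log2 fold change of 0.05 had a 95% interval from -0.18 to 0.28.

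The 6 IkB genes split into one with lower values at ZT13 and one whose mean did not move but whose ZT1 libraries scattered widely. Nfkbie encodes IkB epsilon, an inducible inhibitor. It stood at 61.4, 43.0, 69.5 and 61.5 CPM at ZT13, against 64.9, 102, 111 and 84.6 CPM at ZT1 (log2 fold change -0.62 ± 0.19 SE, 95% interval from -1.05 to -0.19, edgeR adjusted p = 0.456). ZT1 replicates 2, 3 and 4 lay above the 4 ZT13 libraries, and ZT1 replicate 1 lay within their range. Nfkbia encodes IkB alpha, the classical feedback inhibitor, and at 367 CPM per kb it was the most abundant of the 31 genes per length. It stood at 614, 566, 651 and 484 CPM at ZT13, against 264, 587, 1114 and 352 CPM at ZT1. The ZT1 libraries thus lay on both sides of the ZT13 libraries, and the group means were both 579 CPM. The log2 fold change was -0.00 with a 95% interval from -0.84 to 0.84, too wide to set a small difference apart from none. Without ZT1 replicate 3 it was 0.53.

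Groups overlapped in the other IkB genes. Nfkbiz encodes IkB zeta, a nuclear cofactor for secondary response genes. It stood at 466, 347, 496 and 394 CPM at ZT13, against 330, 547, 692 and 404 CPM at ZT1 (-0.21 ± 0.22 SE, edgeR adjusted p = 0.831). Its log2 fold change was -0.01 without ZT1 replicate 3. Nfkbid, the nuclear IkB NS, stood at 188, 126, 135 and 166 CPM at ZT13, against 132, 201, 201 and 168 CPM at ZT1. In both genes ZT1 replicates 2 and 3 were the highest of the 8 libraries, while the lowest was ZT1 replicate 1 for Nfkbiz and ZT13 replicate 2 for Nfkbid, whose log2 fold change of -0.20 was -0.11 without it. Nfkbib (IkB beta) and Bcl3, a nuclear IkB that binds p50 and p52 dimers, had log2 fold changes of -0.02 and -0.03 with intervals from -0.44 to 0.40 and from -0.41 to 0.36. In Nfkbib, 14.8% of the exon bases overlap a gene on the opposite strand. ZT1 replicate 3 was the highest library in 6 of the 6 IkB genes, against 10.6% of all genes tested.

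**Figure D2:**
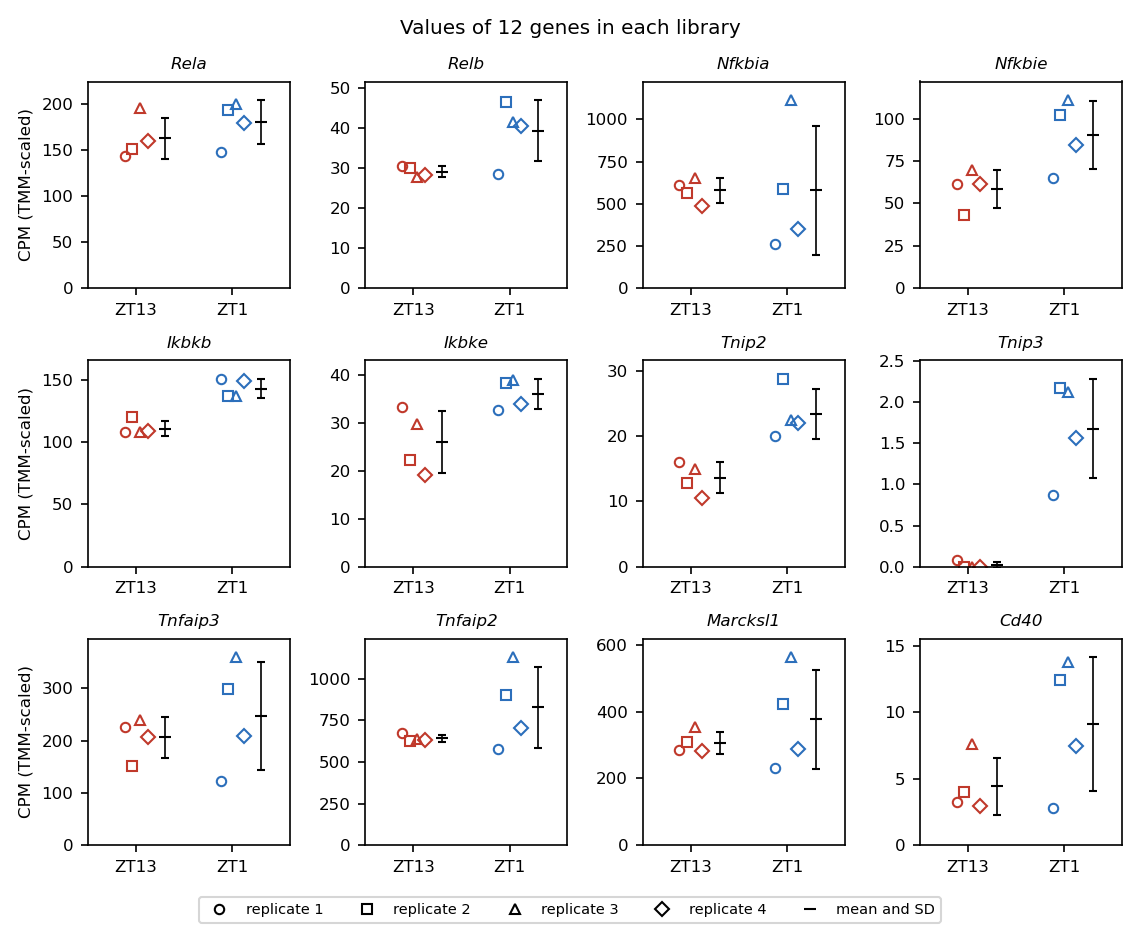
CPM of 12 genes (y axis, from 0) in the ZT13 libraries (red) and the ZT1 libraries (blue), with 1 symbol per replicate and bars for the mean and SD of each group. Ikbkb, Tnip2 and Tnip3 separate the groups, while in Nfkbia the ZT1 libraries range from 264 to 1114 CPM on both sides of the ZT13 libraries.

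Of the 7 kinases and adaptors, Ikbkb was the one whose groups did not overlap. Such a gap was seen in 2.99% of all genes tested with ZT13 lower and in 2.66% with ZT13 higher. Ikbkb encodes IKK beta, the kinase that acts on IkB alpha in the canonical pathway, and lies on chromosome 8 (minus strand, 22659212 to 22706589, GRCm38). It stood at 108, 120, 108 and 109 CPM at ZT13, against 151, 137, 137 and 149 CPM at ZT1. The groups did not overlap, and each was tight, with an SD of 0.08 on the log2 CPM scale in both. The log2 fold change was -0.36 ± 0.09 SE, or 0.777 times the ZT1 level (95% interval of the log2 value from -0.55 to -0.17; adjusted p = 0.322 in edgeR and 0.0193 in DESeq2). It stayed between -0.43 and -0.34 in the 16 alternative fits. Ikbke, the related kinase IKK epsilon, stood at 33.3, 22.2, 29.8 and 19.2 CPM at ZT13, against 32.8, 38.5, 39.1 and 34.1 CPM at ZT1 (-0.47 ± 0.19 SE, edgeR adjusted p = 0.516). Its groups overlapped through ZT13 replicate 1 alone.

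In the other 5 genes of the kinase step the groups overlapped. Chuk, which encodes IKK alpha, averaged 63.2 ± 5.13 CPM at ZT13 and 61.5 ± 6.40 CPM at ZT1 (SD, n = 4 each), with a log2 fold change of 0.04 and an interval from -0.22 to 0.29. Ikbkg, the regulatory subunit NEMO, had a log2 fold change of -0.18 and an interval from -0.59 to 0.24. Traf2, an adaptor of tumour necrosis factor receptors, stood at 28.2, 36.3, 33.8 and 21.3 CPM at ZT13, against 40.8, 36.6, 35.2 and 40.6 CPM at ZT1 (-0.36 ± 0.17 SE, edgeR adjusted p = 0.574). The lowest ZT1 library lay below the highest ZT13 library, and without ZT13 replicate 4 the value was -0.23. Traf6, the adaptor of Toll-like and interleukin-1 receptors, had a log2 fold change of -0.02 and an interval from -0.49 to 0.44. Map3k8, the kinase Tpl2 that is held by p105, had one of 0.10 and an interval from -0.51 to 0.71. For the 7 genes the median was -0.18. It was -0.07 without ZT13 replicate 1, -0.34 without ZT13 replicate 3 and -0.08 without ZT1 replicate 3.

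Among the 5 feedback inhibitors, Tnip2 separated the time points without overlap, a pattern seen in 2.99% of all genes tested. Tnip3 passed the filter on low counts through its ZT1 libraries alone and is described apart. Tnip2 encodes ABIN-2, which binds A20 and stabilises Tpl2, and lies on chromosome 5 (minus strand, 34496087 to 34513991). It stood at 16.0, 12.9, 14.9 and 10.6 CPM at ZT13, against 20.1, 28.8, 22.5 and 22.1 CPM at ZT1. The highest ZT13 library lay below the lowest ZT1 library. The log2 fold change was -0.78 ± 0.19 SE, or 0.583 times the ZT1 level (interval of the log2 value from -1.20 to -0.36; adjusted p = 0.337 in edgeR and 0.0318 in DESeq2), and it stayed between -0.87 and -0.67 in the alternative fits. The Tnip2 promoter window shown above holds no kB match.

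Tnip3 encodes ABIN-3, the third A20-binding inhibitor, and lies on chromosome 6 (plus strand, 65525313 to 65634040). It was a transcript of very low level that was all but missing at ZT13. It had 4, 0, 0 and 0 counts in ZT13 replicates 1 to 4 (0.0788, 0, 0 and 0 CPM), against 54, 101, 127 and 113 counts in ZT1 replicates 1 to 4 (0.877, 2.17, 2.13 and 1.56 CPM). A single ZT13 library held counts, and every ZT1 library held more. Summed over the libraries and scaled to depth, the level at ZT13 was 0.0119 times that at ZT1 (95% exact binomial interval from 0.00324 to 0.0308, which covers counting error only). The fitted log2 fold change of -6.26 ± 1.32 SE depends on how zeros are treated (adjusted p = 0.256 in edgeR and 1.26e-04 in DESeq2). Tnip3 passed the filter through its ZT1 libraries, was below 5 CPM everywhere, and is described here because its values stood out. It left the tested genes when 5 or more CPM in 4 samples were required. The ZT13 libraries also had fewer detected genes, 14908 ± 766 against 16891 ± 815 at ZT1, and the part of this in the Tnip3 values was not tested.

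The central inhibitor A20 did not separate the groups. Tnfaip3, its gene and the most abundant of the feedback group at 51.2 CPM per kb, stood at 227, 151, 240 and 207 CPM at ZT13, against 122, 298, 359 and 209 CPM at ZT1. As for Nfkbia, the lowest and the highest values were both at ZT1, in replicates 1 and 3 (-0.26 ± 0.29 SE, edgeR adjusted p = 0.849). Without ZT1 replicate 3 the value was -0.03, and without ZT1 replicate 1 it was -0.49. Zc3h12a, the ribonuclease regnase-1 that degrades inflammatory mRNAs, stood at 40.0, 38.9, 51.9 and 33.8 CPM at ZT13, against 32.4, 56.0, 48.8 and 46.3 CPM at ZT1 (-0.16 ± 0.19 SE, edgeR adjusted p = 0.871). Tnip1 (ABIN-1) averaged 49.3 ± 10.6 CPM at ZT13 and 52.4 ± 5.12 CPM at ZT1 (SD, n = 4 each), with a log2 fold change of -0.09.

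All 8 induced targets had negative log2 fold changes, from -1.03 to -0.08, yet 0 of them reached an unadjusted p under 0.05, and in none did the groups separate. Tnfaip2, an endothelial and myeloid protein induced by tumour necrosis factor, stood at 673, 629, 637 and 630 CPM at ZT13, against 576, 904, 1128 and 704 CPM at ZT1 (-0.37 ± 0.18 SE, edgeR adjusted p = 0.577). The ZT13 libraries fell within a narrow band, with ZT1 replicate 1 below it and the other 3 ZT1 libraries above. Without ZT1 replicate 3 the value was -0.18. Marcksl1, an actin-binding protein and the most abundant target per length at 213 CPM per kb, stood at 284, 309, 354 and 282 CPM at ZT13, against 231, 424, 562 and 288 CPM at ZT1 (-0.29 ± 0.24 SE, edgeR adjusted p = 0.789). ZT1 replicate 1 was its lowest library, ZT1 replicates 2 and 3 its highest, and ZT1 replicate 4 lay within the ZT13 range. Its value was -0.04 without ZT1 replicate 3 and -0.47 without ZT1 replicate 1.

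The costimulatory targets were lower in level and more variable. Cd40, the receptor for CD40 ligand, stood at 3.27, 4.00, 7.59 and 2.94 CPM at ZT13, against 2.78, 12.4, 13.8 and 7.46 CPM at ZT1. ZT1 replicates 2 and 3 lay above the ZT13 libraries and ZT1 replicate 1 below them (-1.03 ± 0.50 SE, 95% interval from -2.15 to 0.08, edgeR adjusted p = 0.572). Cd83, a marker of activated antigen-presenting cells that activated neutrophils also express, stood at 47.8, 47.2, 14.5 and 40.6 CPM at ZT13, against 41.5, 68.0, 104 and 42.5 CPM at ZT1 (-0.77 ± 0.40 SE, edgeR adjusted p = 0.601). Its low value at ZT13 came from replicate 3, the library that stood apart. Its log2 fold change was -0.50 without that library and -0.44 without ZT1 replicate 3. Traf1, an inducible adaptor, averaged 7.91 ± 1.15 CPM at ZT13 and 13.4 ± 9.09 CPM at ZT1 (SD, n = 4 each), with 26.6 CPM in ZT1 replicate 3. Its log2 fold change was -0.76, and -0.20 without that library. The survival gene Birc3 (cIAP2), the endocytic gene Ehd1 and the mitochondrial superoxide dismutase gene Sod2 had log2 fold changes of -0.14, -0.21 and -0.08. That of Ehd1 was -0.05 without ZT1 replicate 3.

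**Figure D3:**
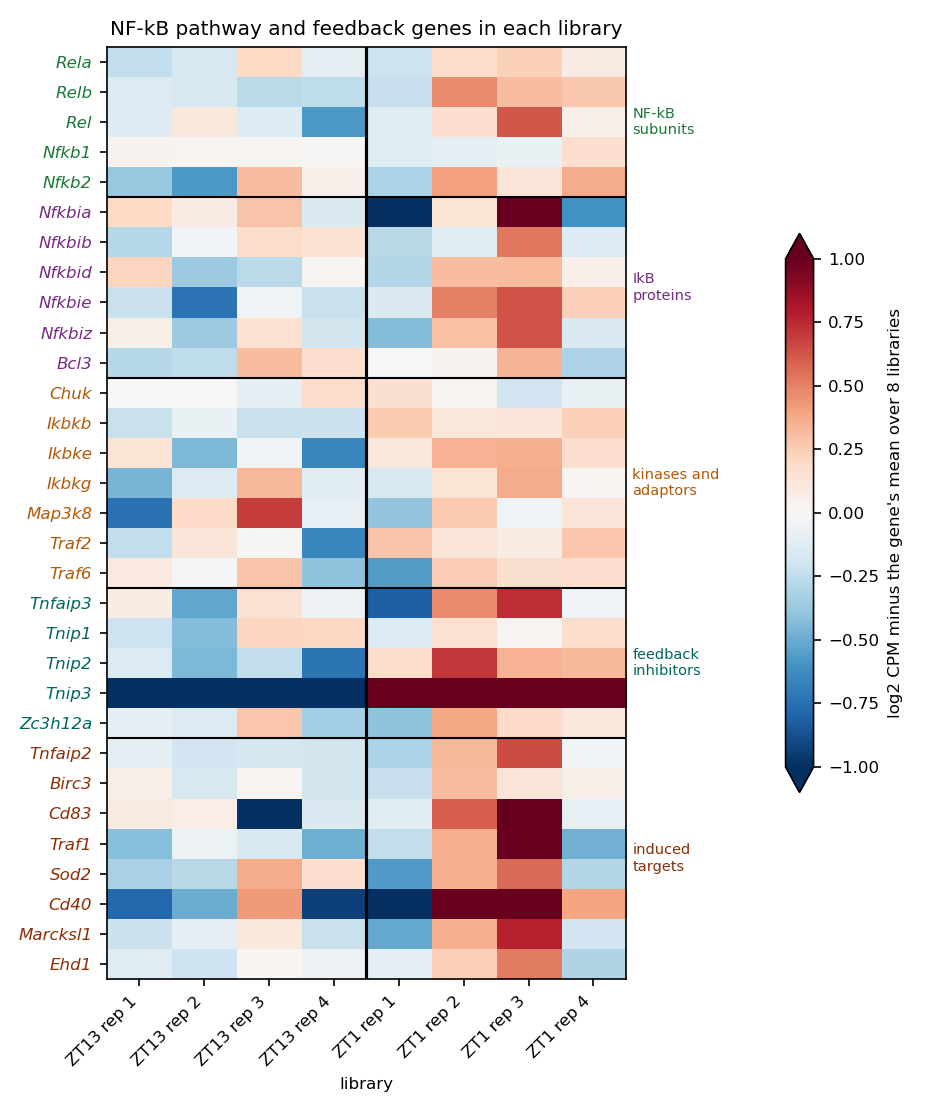
Log2 CPM of each gene in each library minus its mean over the 8 libraries (colour, cut at -1 and 1), ordered by role, with ZT13 left and ZT1 right of the line. ZT1 replicate 3 is the highest library for 7 of the 8 induced targets and ZT1 replicate 1 the lowest for 5, while Ikbkb and Tnip2 are low in all ZT13 and high in all ZT1 libraries.

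The pathway parts and their induced targets differed less in their median than in their spread. The median log2 fold change was -0.28 for subunits, -0.11 for IkB proteins, -0.18 for kinases and adaptors, -0.26 for feedback inhibitors and -0.33 for induced targets. Without ZT1 replicate 3 these medians lay between -0.20 and 0.04. The feedback median includes Tnip3, and was -0.19 when 5 or more CPM in 4 samples were required, which removed that gene. The 6 genes at an unadjusted p under 0.05 were all among the 23 pathway parts, and none among the 8 targets. Tnip3, which passed the filter through its ZT1 libraries alone, is among the 6 and is no support. Over all genes tested the share was 9.20%, and the split between parts and targets was not tested. Within ZT1 the median SD of log2 CPM was 0.55 for induced targets, 0.35 for IkB proteins, 0.34 for feedback inhibitors, 0.30 for subunits and 0.15 for kinases and adaptors, against 0.31 for all genes tested. Within ZT13 these medians were 0.18, 0.25, 0.30, 0.19 and 0.33 in the same order, against 0.39 for all genes tested.

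Induced targets thus scattered more between ZT1 libraries than between ZT13 libraries, which is the opposite of the pattern over all genes tested. That pattern includes ZT13 replicate 3, the library that stood apart, and the part of this library in it was not tested. The SD was wider within ZT1 for 7 of the 8 targets, with Cd83 the exception, and for 14 of the 23 pathway parts, against 33.8% of all genes tested. The median difference of SD, ZT13 minus ZT1, was -0.32 for the targets and -0.02 for the pathway parts, against 0.09 for all genes tested. For the targets it was -0.19 without ZT1 replicate 1 and -0.20 without ZT1 replicate 3. For the pathway parts it turned to 0.12 without ZT1 replicate 1. The largest contrasts were Nfkbia, with an SD of 0.19 within ZT13 and 0.91 within ZT1, and Traf1, with 0.21 within ZT13 and 0.87 within ZT1. Kinases and adaptors lay near the pattern of all genes tested, with 3 of 7 wider within ZT1 and a median difference of 0.11, and Map3k8, Ikbke, Traf2 and Ikbkg wider within ZT13. With 4 libraries per group these SDs are imprecise, and they are given as descriptions.

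**Figure D4:**
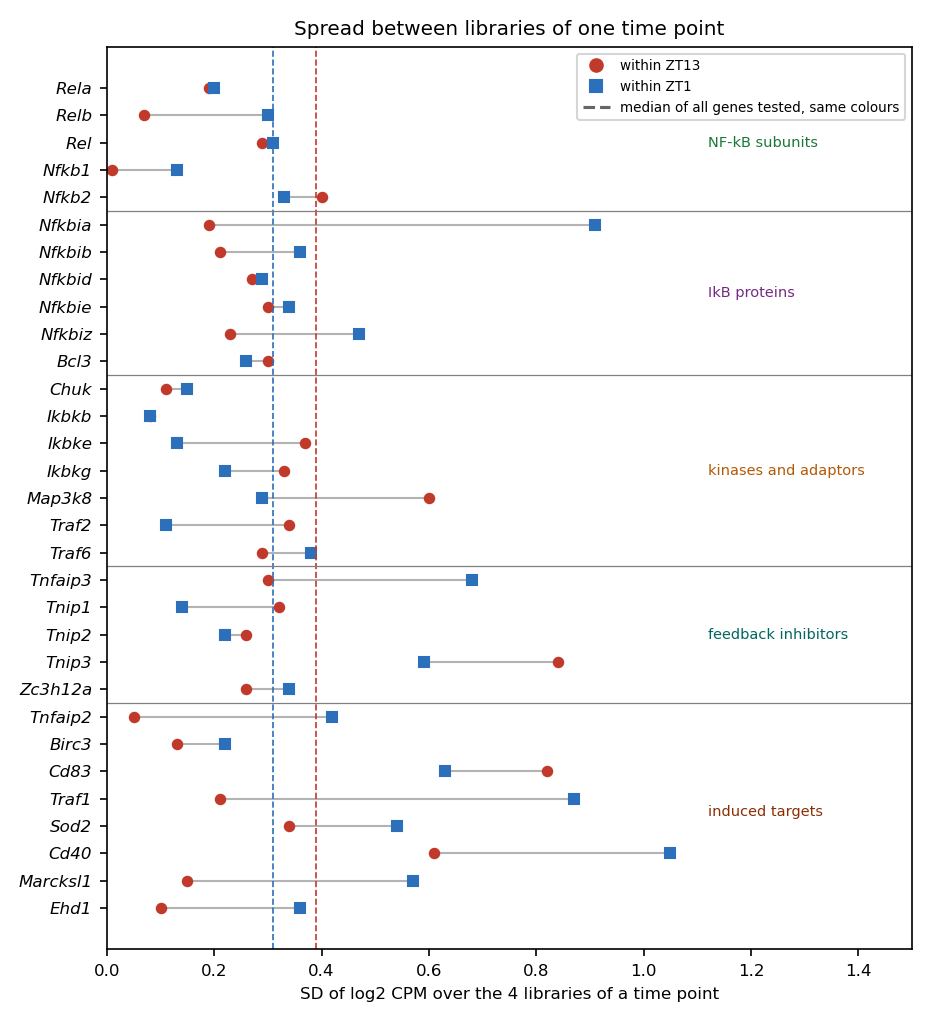
SD of log2 CPM over the 4 libraries of each time point (x axis) for each gene, within ZT13 (red circles) and within ZT1 (blue squares), with dashed lines at the medians of all genes tested, 0.39 and 0.31. The induced targets apart from Cd83 lie further right within ZT1, as do Nfkbia and Tnfaip3.

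The scatter within ZT1 followed the same libraries from gene to gene. ZT1 replicates 2 and 3 were the 2 highest of the 8 libraries in 7 of the 8 induced targets and in 16 of the 31 genes, against 4.01% of all genes tested. ZT1 replicate 1 lay below all 4 ZT13 libraries in 5 targets and in 11 of the 31 genes, against 18.7% of all genes tested. Expressed as the median deviation of the 8 targets from each gene's mean, the ZT13 replicates 1 to 4 stood at -0.17, -0.18, 0.03 and -0.19 on the log2 scale, and the ZT1 replicates 1 to 4 at -0.28, 0.36, 0.71 and -0.14. For kinases and adaptors the ZT13 replicates stood at -0.22, -0.01, 0.01 and -0.22 and the ZT1 replicates at 0.11, 0.14, 0.12 and 0.17. The medians of the ZT1 libraries, far apart for the targets, were thus nearly level for these 7 genes, where they did not overlap those of ZT13. For 35 other upstream pathway genes outside the 31 the medians did overlap. They stood at -0.03, 0.04, -0.01 and -0.01 in the ZT13 replicates and at 0.04, 0.08, 0.05 and 0.00 in the ZT1 replicates. Over all genes tested the same medians lay between -0.02 and 0.07. Single genes of the kinase step were not level: in ZT1 replicate 1, Traf6 stood at -0.559, Map3k8 at -0.398 and Traf2 at 0.288. Ikbkb alone of these genes had groups without overlap, with ZT13 lower, a pattern seen in 2.99% of all genes tested.

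**Figure D5:**
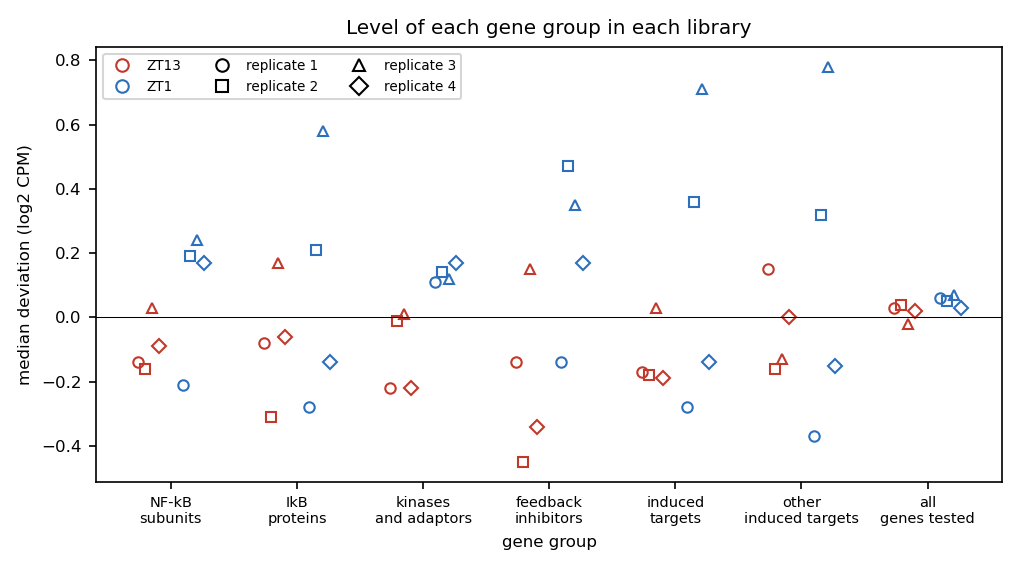
Median deviation from each gene's mean over the 8 libraries (y axis, log2 CPM) for each gene group in each ZT13 library (red) and ZT1 library (blue), with 1 symbol per replicate. For induced targets the ZT1 libraries run from -0.28 to 0.71 around the ZT13 libraries, and for kinases and adaptors they lie between 0.11 and 0.17.

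Other induced targets outside the 31 also had wider spread within ZT1 than within ZT13. Of 41 other induced targets tested, 0 passed at an adjusted p under 0.05, 3 stood at an unadjusted p under 0.05 with lower values at ZT13 and 1 with higher values, close to the share of all genes tested, 9.20%. Their median log2 fold change was -0.24, 30 had a wider SD within ZT1, and ZT1 replicate 3 was the highest library in 29. Those with the smallest p were Lcn2, which encodes the iron-binding granule protein lipocalin 2, and Il1a, which encodes interleukin-1 alpha. Of the 41, 32 had negative log2 fold changes and the rest, Lcn2 among them, positive ones. Lcn2 stood at 10068, 9449, 10091 and 9575 CPM at ZT13, against 6460, 7243, 8669 and 5356 CPM at ZT1 (0.50 ± 0.13 SE, edgeR adjusted p = 0.403). Il1a stood at 6.71, 7.62, 1.21 and 3.64 CPM at ZT13, against 9.27, 47.9, 88.1 and 9.63 CPM at ZT1 (-3.01 ± 0.82 SE, edgeR adjusted p = 0.403).

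The other upstream and inhibitory genes stayed nearer to all genes tested. Of 35 other upstream genes, 22 had negative log2 fold changes, with a median of -0.11, and 0 stood at an unadjusted p under 0.05. The smallest p belonged to Irak1, a kinase of the interleukin-1 receptor, at 59.8 ± 5.07 CPM at ZT13 and 72.5 ± 10.5 CPM at ZT1, and to Sharpin of the linear ubiquitin ligase, at 45.8 ± 4.33 CPM at ZT13 and 38.5 ± 4.39 CPM at ZT1 (SD, n = 4 each). Of 20 other negative regulators tested, 10 had negative values, with a median of -0.01. Itch, a ubiquitin ligase that works with A20, had the smallest p of these 20. It stood at 90.1, 102, 95.4 and 116 CPM at ZT13, against 127, 118, 131 and 139 CPM at ZT1 (-0.35 ± 0.10 SE, edgeR adjusted p = 0.434). It was the 1 gene of the 20 without overlap between groups. Of all genes tested, 2.99% had all ZT13 libraries below all ZT1 libraries and 2.66% above. Otud7b (Cezanne), a deubiquitinase, averaged 16.6 ± 2.11 CPM at ZT13 and 11.6 ± 3.54 CPM at ZT1 (0.52 ± 0.23 SE, edgeR adjusted p = 0.545).

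Genes on marker lists of other cell types had counts in these sorted samples, some at or above the level of Ly6g. The 14 dendritic cell markers, of which 9 were tested, summed to between 182 and 354 CPM at ZT13 and between 131 and 439 CPM at ZT1. Their sum was 388 and 439 CPM in ZT1 replicates 2 and 3, and 131 and 143 CPM in ZT1 replicates 1 and 4, so that the libraries with high induced targets within ZT1 also had high dendritic sums. The neutrophil sum had a like order within ZT1, at 134784, 162407, 170383 and 134349 CPM in replicates 1 to 4, and the microglia and macrophage sum was highest in ZT1 replicate 3, at 1815 CPM. Within ZT13 the dendritic sums and the target medians did not share an order. ZT13 replicates 1 to 4 had dendritic sums of 354, 346, 182 and 249 CPM and target medians of -0.17, -0.18, 0.03 and -0.19. Most of the dendritic sum was Cd74 and other MHC class II genes. Of the defining markers, named after their values were seen, Xcr1 and Clec9a had no counts outside ZT1 replicate 3. Flt3 ran from 1.57 to 9.90 CPM at ZT13 and from 2.83 to 8.25 CPM at ZT1. Siglech ran from 0.571 to 3.61 CPM at ZT13 and stood at 0.601, 4.92, 3.22 and 2.98 CPM in ZT1 replicates 1 to 4. In the same ZT1 libraries Itgax stood at 3.08, 9.90, 6.54 and 1.74 CPM and Cd209a at 0.877, 3.86, 1.83 and 0 CPM. These genes were thus highest within ZT1 in replicates 2 and 3, while Flt3, Batf3, Zbtb46 and Fscn1 did not have that order. Ccr7 had counts within ZT1 in replicate 2 alone. The 15 microglia and macrophage markers summed to between 1000 and 1629 CPM at ZT13 and between 1183 and 1815 CPM at ZT1. The 9 monocyte markers summed to between 10735 and 15537 CPM at ZT13 and between 11872 and 16068 CPM at ZT1, mostly from Chil3, which neutrophils also express. Of that list, F13a1 (1021 to 1499 CPM at ZT13, 974 to 1561 CPM at ZT1) stood above Ly6g in every library. So did Ly6c2 (1105 to 1298 CPM at ZT13, 679 to 1047 CPM at ZT1). Ccr2 (305 to 491 CPM at ZT13, 437 to 547 CPM at ZT1) stood above Ly6g in several libraries. B cell markers, nearly all Ighm with Ebf1 at 0, summed to between 153 and 194 CPM at ZT13 and between 136 and 249 CPM at ZT1. Central nervous system markers, led by Mbp, summed to between 110 and 219 CPM at ZT13 and between 104 and 167 CPM at ZT1. Sums were lower for endothelial and mural cells (from 10.8 CPM in ZT13 replicate 4 to 24.2 CPM in ZT1 replicate 1), T and NK cells (3.28 to 8.98 CPM at ZT13, 2.01 to 5.99 CPM at ZT1) and red blood cells (2.52 to 30.1 CPM at ZT13, 0.422 to 3.81 CPM at ZT1). The 15 neutrophil markers, led by the granule gene Ngp, summed to between 172320 and 221422 CPM at ZT13 and between 134349 and 170383 CPM at ZT1, without overlap. The sum is weighted to its most abundant genes, and single markers went both ways. Csf3r (-0.29), Ptprc (-0.18), Elane (-0.17) and Mpo (-0.48) had negative log2 fold changes. The other markers of that list ran from 0.02 (Itgam) to 0.63 (S100a8). The part of any of these cells or genes in the NF-kB values was not tested.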

How the data were processed

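RNA of sorted spinal cord neutrophils (11000 to 50000 cells per mouse, per the labels' protocols) was amplified with SMART-Seq v4 and made into unstranded Nextera XT libraries, read as single reads of 50 bases. The authors deposited raw counts per gene and library. The submitters' processing notes name build GRCm38 and, among other tools, STAR 2.7.10b, featureCounts and Subread 2.0.3. Annotation release, strand setting and handling of multi-mapped reads: not given in the sources used here. Columns were matched to samples by library name. Names, coordinates and transcript lengths (longest coding transcript) came from GENCODE M21, matched without version numbers for 22231 of 23369 genes; the others held 0.121% of counts.

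All genes were fitted with edgeR 4.0.16 in R 4.3.3: filterByExpr (minimum count 10, total 15), TMM factors, robust quasi-likelihood F-tests and Benjamini-Hochberg adjustment over 12610 genes, threshold 0.05. Each SE is the fold change on the log2 scale over the root of its F value. Log2 CPM used a prior count of 2. Alternatives were DESeq2 1.42.0, limma-voom (limma 3.58.1), other scalings and filters, each library left out, and replicate blocks. The procedures were tested on simulated data. The spread between samples limits most values; depth limits Tnip3.

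The genes, lists and roles were chosen with earlier results of these data known. By rule, values per library are given for the 3 genes of each role with the smallest p at 5 or more CPM and the most abundant one per kb, and the 2 smallest-p genes of other pathway lists are named.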

Additional observations from a re-analysis of the deposited data

Results flagged for a closer look

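Of 62 groups of 4 libraries (31 genes at 2 time points), 4 held a library far from the other 3 on the log2 CPM scale. Chance flags about 1 in 20 groups. Ikbkb in ZT13 replicate 2 stood at 120 CPM, above 3 ZT13 libraries that were nearly equal, and still below every ZT1 library. Traf6 in ZT1 replicate 1 stood at 24.2 CPM, below the other ZT1 libraries and every ZT13 library. Cd83 in ZT13 replicate 3 stood at 14.5 CPM, the lowest of the 8 libraries. Tnip3 in ZT13 replicate 1 stood at 0.0788 CPM from 4 counts, while the other ZT13 libraries had 0. That tie at 0 fixes the flag in advance for any library with counts.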

How the results depend on the processing

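DESeq2 called 118 of all genes and 3 of the 31, Ikbkb (-0.36), Tnip2 (-0.77) and Tnip3 (-6.41), where edgeR called 0 of both; 0 were called in each of the other 15 fits, and the cause was not tested. The number at an unadjusted p under 0.05 ran from 4 to 12 with a library left out (6.00% to 11.5% of all genes in those fits), and the number with negative values from 24 to 29. Median log2 fold changes with a library left out ran from -0.42 to -0.16 for subunits, -0.28 to 0.04 for IkB proteins, -0.34 to -0.07 for kinases and adaptors, -0.49 to -0.13 for feedback inhibitors and -0.49 to -0.15 for induced targets. The difference of SD ran from -0.43 to -0.19 for targets and from -0.04 to 0.12 for pathway parts; with library totals it was -0.23 and 0.02.

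Same-numbered libraries correlated between -0.0399 and 0.0505 in their deviations over all genes tested. Libraries of unlike number were not compared, so these values cannot settle whether replicate numbers pair the samples. With the replicate block of sample titles 5 of the 31 stood at an unadjusted p under 0.05 (7.71% of all genes), and with that of library names, which takes ZT13 replicate 4 and ZT1 replicate 3 out of the comparison, 4 (9.48%), with 21 negative. Medians in that block were -0.09 for subunits, 0.03 for IkB proteins, -0.09 for kinases and adaptors, -0.20 for feedback inhibitors and -0.08 for induced targets.

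In 452 of 495 alternative values of single genes the sign and the call were kept, 40 turned sign and 3 became calls; 19 genes turned in no fit. Nfkbia turned to 0.01 with DESeq2 and with its size factors, 0.02 with the stricter filter, 0.23 with limma-voom, 0.21 with the title block and 0.69 with the library-name block. The library-name block also turned Nfkbib to 0.13, Nfkbiz to 0.05, Bcl3 to 0.01, Chuk to -0.07, Traf6 to 0.17, Tnfaip3 to 0.04, Sod2 to 0.09 and Marcksl1 to 0.05. Library totals turned Nfkb1 to -0.02 and Chuk to -0.03, limma-voom Traf6 to 0.00 and the title block Nfkbib to 0.00. With a library left out, turned values ran from -0.24 to 0.53 for Nfkbia, -0.11 to 0.19 for Nfkbib, -0.15 to 0.09 for Bcl3, -0.02 to 0.10 for Chuk, -0.17 to 0.30 for Map3k8, -0.18 to 0.09 for Traf6, -0.18 to 0.02 for Tnip1 and -0.24 to 0.12 for Sod2. Depth limits Tnip3, which had 0 to 4 counts at ZT13.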
